A study of Homo sapiens with 6 samples.

Results

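Immediate early genes are transcribed within minutes of a growth factor, cytokine or stress signal without new protein synthesis, and MAPK phosphatases switch the kinases of that signal off again. The 10 genes described here were chosen by symbol from the 58037 gene rows of the deposited table: the AP-1 subunit genes FOS, FOSB, JUN and JUNB, the stress-responsive bZIP gene ATF3, the zinc finger gene EGR1, the survival gene IER3 and the dual-specificity phosphatase genes DUSP1, DUSP5 and DUSP6. All 10 symbols matched 1 row each. Mean expression of 9 of them was at least 0.5 FPKM and was tested, and FOSB lay below that minimum.

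The cells were HepaRG, a human line from a hepatocellular carcinoma that differentiates in culture into hepatocyte-like and biliary-like cells. In the fatty acid group the medium held 0.5 mM palmitate and oleate at 1 part to 2 parts, carried on 0.02% bovine serum albumin, for 72 h. The control group received 0.02% albumin without fatty acid for the same 72 h. Both groups shared passages 15 to 18, 14 days of growth, 14 days of differentiation and 5 days in a basal medium with insulin and hydrocortisone, and whether the treatment medium held hydrocortisone is not stated in the labels. Each group had 3 libraries of bulk RNA. No label says that the 3 are independent cultures, and the p-values therefore reflect only how these libraries vary, possibly for technical reasons. The series asks how fatty acid loading, used as a model of steatosis, alters drug metabolism genes. Its single time of 72 h lies long after the transient that follows a stimulus.

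In the textbook pathway, growth factor receptors act through RAS, RAF and MEK on the kinase ERK, while stress signals act through JNK and p38. Signals through ERK and p38 reach factors bound at the FOS and EGR1 promoters. Among them are the ternary complex factors that sit with SRF on a CArG box, and CREB on a cyclic AMP response element (CRE). FOS and JUN proteins pair into the AP-1 factor. DUSP1 protein dephosphorylates p38, JNK and ERK in the nucleus, DUSP5 acts on nuclear ERK, and DUSP6 on cytoplasmic ERK. Glucocorticoids are known to induce DUSP1 in liver cells.

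The promoters of FOS, EGR1 and DUSP1 are printed because these 3 genes had the lowest mean levels in fatty acid cells relative to control cells. The windows run from 250 bases before to 50 bases after the RefSeq start (GRCh38.p14), 5′ to 3′ on the strand of the gene. FOS lies at chr14:75278578-75278877 on the plus strand, EGR1 at chr5:138465229-138465528 on the plus strand and DUSP1 at chr5:172771146-172771445 on the minus strand. Capitals mark matches on either strand to the full CRE TGACGTCA, its core TGACG, the CArG box, the TATA motif TATAAA and the EGR motif GCGNGGGCG.
FOS: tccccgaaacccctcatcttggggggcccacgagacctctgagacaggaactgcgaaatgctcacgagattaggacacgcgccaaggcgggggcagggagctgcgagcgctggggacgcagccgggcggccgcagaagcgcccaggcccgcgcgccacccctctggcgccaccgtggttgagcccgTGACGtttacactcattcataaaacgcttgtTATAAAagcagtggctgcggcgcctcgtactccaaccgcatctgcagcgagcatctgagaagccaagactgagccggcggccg
EGR1: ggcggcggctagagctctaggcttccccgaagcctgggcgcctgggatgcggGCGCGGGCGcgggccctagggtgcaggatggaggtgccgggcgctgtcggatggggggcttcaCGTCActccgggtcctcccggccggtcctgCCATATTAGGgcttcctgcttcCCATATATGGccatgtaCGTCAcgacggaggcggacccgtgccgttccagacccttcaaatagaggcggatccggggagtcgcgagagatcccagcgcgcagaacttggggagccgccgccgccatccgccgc
DUSP1: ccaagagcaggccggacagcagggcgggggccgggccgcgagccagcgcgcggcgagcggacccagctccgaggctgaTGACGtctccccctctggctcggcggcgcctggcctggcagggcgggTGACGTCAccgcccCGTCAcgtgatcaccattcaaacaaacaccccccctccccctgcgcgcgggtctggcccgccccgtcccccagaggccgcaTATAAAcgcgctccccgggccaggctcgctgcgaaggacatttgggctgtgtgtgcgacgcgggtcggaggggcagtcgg

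EGR1 held 2 CArG boxes, CCATATTAGG starting 105 bases and CCATATATGG starting 83 bases upstream of the start. Its window was the only 1 of the 8 members with a promoter entry to hold a CArG box, against 1.29% of all 35116 promoter entries. Sites more than 250 bases upstream were not searched, so a window without a match does not show that FOS or another member lacks a CArG box. DUSP1 held the full CRE TGACGTCA 125 bases upstream, a motif found in 1.85% of entries. The core TGACG, which is also part of the full CRE, was in 6 of the 8 members (FOS, FOSB, JUN, JUNB, EGR1 and DUSP1) and in 24.6% of entries. TATAAA was in 5 of the 8 and in 11.5% of entries. It started 33 bases upstream in FOS and 30 in DUSP1, but 230 in ATF3. The AP-1 motif TGANTCA was in none of the 8 windows and in 7.71% of entries, and GCGNGGGCG was in EGR1 alone of the 8 and in 9.43% of entries. ATF3 has 2 entries, and a match in either was counted. IER3 and DUSP5 have no entry.

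The libraries held 8.36, 14.36 and 15.94 M reads in fatty acid replicates 1, 2 and 3, and 8.96, 6.33 and 11.82 M in control replicates 1, 2 and 3. Of 14661 tested genes 1205 passed the threshold as higher and 686 as lower in fatty acid cells. Mitochondrially encoded genes took 9.15% to 11.9% of reads in the fatty acid libraries and 12.2% to 15.0% in the control libraries. Hepatocyte markers fixed for the check (12 genes, ALB the most abundant) summed to 12260 to 12760 FPKM in fatty acid cells and 16210 to 16880 FPKM in control cells, with 9 of 12 lower and 2 higher. Biliary markers (9 genes, EPCAM listed at 0 throughout) summed to 423.6 to 439.8 FPKM in fatty acid cells and 442.7 to 517.7 FPKM in control cells, with 1 of 5 tested genes lower. Mesenchymal markers (8 genes, THY1 at 0) summed to 117.4 to 125.2 FPKM and 100.4 to 110.3 FPKM in fatty acid and control cells, with 1 of 6 higher. Immune markers (8 genes, CD3E and MS4A1 among those at 0) summed to 14.4 to 15.3 FPKM in fatty acid cells and 10.7 to 14.8 FPKM in control cells, with 0 of 2 tested genes called. Endothelial markers (5 genes, CDH5 at 0) summed to 25.36 to 27.34 FPKM in fatty acid cells and 37.98 to 44.88 FPKM in control cells, almost all of it KDR, the only tested gene, which was lower. The part of these marker shifts in the values below was not tested, and in bulk RNA fewer cells of a type and less RNA per cell cannot be told apart.

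None of the 9 tested genes passed the threshold. EGR1, FOS and DUSP1 had lower means in fatty acid cells, IER3, DUSP5 and ATF3 had higher means, and JUN and JUNB were nearly level. With limma and Benjamini-Hochberg adjustment over all tested genes, 0 of 9 were called higher, against 8.22% of all tested genes, and 0 of 9 lower, against 4.68%. At an unadjusted p under 0.05 there were 4 members, 2 higher and 2 lower, against 30.5% of all tested genes, of which 19.1% higher and 11.4% lower. The groups did not overlap for 4 of the 9 genes, against 37.1% of all tested genes. Of these, ATF3, IER3 and DUSP5 were higher, against 23.7% of all, and EGR1 was lower, against 13.3%. The shares of members at an unadjusted p and without overlap lie near those of the whole table. The median log2 fold change of the 9 was -0.06, against 0.04 over all tested genes. The test on the recovered reads (limma voom) called 1 of 9 members higher, against 12.6% of all tested genes, and 3 of 9 lower, against 7.86%, as given with each gene. An exact two-sided permutation test of 3 against 3 cannot go below p = 0.1, which those 4 non-overlapping genes reached (0.25 after Benjamini-Hochberg adjustment over the 10 genes).

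**Figure D1:**
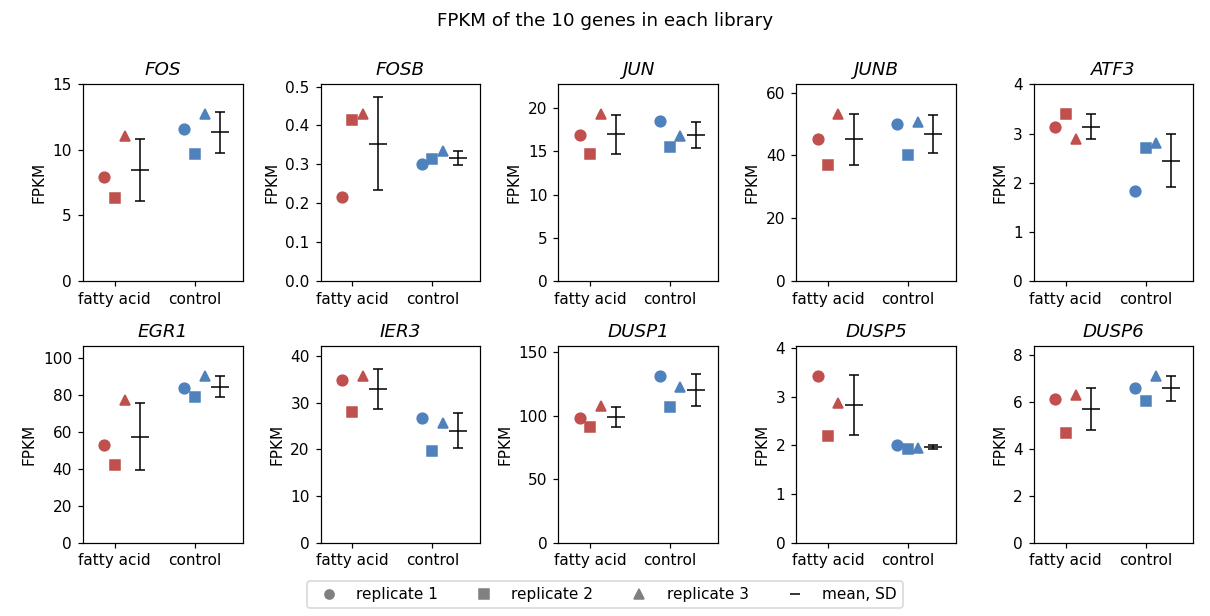
FPKM of each of the 10 genes (vertical axis, linear from 0, a scale per gene) in the fatty acid libraries (red, left) and the control libraries (blue, right), with the mean and SD as black marks and the replicate number as the symbol. EGR1 and IER3 separate the groups in opposite directions, JUN and JUNB overlap, and replicate 2 (squares) is the lowest of its group in most panels.

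Per length of gene, DUSP1 was the most abundant of the 10 at a mean of 109.5 FPKM over all libraries, followed by EGR1 (71.0 FPKM), JUNB (46.0 FPKM), IER3 (28.5 FPKM), JUN (16.9 FPKM), FOS (9.89 FPKM), DUSP6 (6.15 FPKM), ATF3 (2.79 FPKM), DUSP5 (2.40 FPKM) and FOSB (0.335 FPKM). DUSP1 stood above 98.3% and EGR1 above 97.0% of tested genes, while ATF3 and DUSP5 stood above 37.2% and 33.2%. Neighbours in this order had separate ranges within each group except EGR1 and JUNB in fatty acid cells and ATF3 and DUSP5 in both groups.

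FOS encodes the inducible partner of JUN proteins in AP-1 and lies at chromosome 14, 75278774 to 75282230 (GRCh38, as are all gene positions here). It had 7.94, 6.37 and 11.04 FPKM in fatty acid replicates 1, 2 and 3, against 11.6, 9.66 and 12.7 FPKM in control replicates 1, 2 and 3. The groups overlapped, because fatty acid replicate 3 lay within the control range while replicates 1 and 2 lay below it. The means were 8.45 ± 2.38 FPKM in fatty acid cells and 11.3 ± 1.55 FPKM in control cells (SD, n = 3 each). The log2 fold change of log2(FPKM + 0.5), fatty acid minus control, was -0.43 ± 0.19 (SE), with a 95% interval of -0.86 to 0.005 and a limma adjusted p of 0.168. Leaving out fatty acid replicate 2 it was -0.25. With voom on the recovered reads it was -0.46 and passed (adjusted p = 0.0434).

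FOSB, a paralogue of FOS (chromosome 19, 45467995 to 45475179), was close to the limit of detection. It had 10, 33 and 38 reads in fatty acid replicates 1, 2 and 3, and 15, 11 and 22 reads in control replicates 1, 2 and 3. In FPKM this was 0.215, 0.414 and 0.429 in fatty acid cells and 0.301, 0.313 and 0.335 in control cells, and the fatty acid values lay on both sides of the control values. Without the expression minimum its log2 fold change was 0.05 (limma adjusted p = 0.75). The gene lies entirely within the span of ERCC1, a DNA repair gene on the other strand with 6.17 FPKM in fatty acid cells and 6.51 FPKM in control cells, and whether reads were counted by strand is not stated in the sources used, so reads of the pair may be mixed.

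JUN encodes the main DNA-binding partner of FOS (chromosome 1, 58780788 to 58784327). It had 16.9, 14.7 and 19.3 FPKM in fatty acid replicates 1, 2 and 3, and 18.5, 15.5 and 16.8 FPKM in control replicates 1, 2 and 3. The ranges lay on top of each other. The log2 fold change was -0.003 ± 0.11, with a 95% interval of -0.25 to 0.24 (limma adjusted p = 0.988). Rescaling to TPM, which moved the median of all genes to 0.18, gave 0.13.

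JUNB encodes a JUN relative that can restrain JUN activity (chromosome 19, 12791496 to 12793315). It had 45.1, 37.0 and 53.1 FPKM in fatty acid replicates 1, 2 and 3, and 49.9, 40.0 and 50.8 FPKM in control replicates 1, 2 and 3, so the fatty acid range enclosed the control range. Its log2 fold change was -0.06 ± 0.14, with an interval of -0.39 to 0.27 (limma adjusted p = 0.797). After rescaling to TPM it was 0.07. JUNB lies within the span of HOOK2, a gene for a microtubule-linked adaptor on the other strand with 3.842 FPKM in fatty acid cells and 4.399 FPKM in control cells.

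ATF3 encodes a bZIP factor induced by stress kinases and by ATF4 (chromosome 1, 212565334 to 212620777). It had 3.14, 3.40 and 2.89 FPKM in fatty acid replicates 1, 2 and 3, against 1.82, 2.70 and 2.81 FPKM in control replicates 1, 2 and 3. The groups did not overlap, but the lowest fatty acid value, in replicate 3, was only just above the highest control value, in replicate 3. This gave a log2 fold change of 0.32 ± 0.15, with an interval of -0.02 to 0.66 (limma adjusted p = 0.183). Without control replicate 1, the lowest library, it was 0.16 (adjusted p = 0.309).

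EGR1 encodes a zinc finger activator induced through ERK and SRF (chromosome 5, 138465490 to 138469315). It had 53.1, 42.0 and 77.4 FPKM in fatty acid replicates 1, 2 and 3, against 84.1, 79.1 and 90.5 FPKM in control replicates 1, 2 and 3. All fatty acid values lay below all control values, but replicate 3 came close to the control range and the fatty acid libraries differed 1.84-fold among themselves. The means were 57.5 ± 18.1 FPKM in fatty acid cells and 84.6 ± 5.72 FPKM in control cells (SD, n = 3 each), a ratio of 0.68. The log2 fold change was -0.60 ± 0.19, with an interval of -1.05 to -0.14 (unadjusted p = 0.0163, limma adjusted p = 0.0853). It passed without fatty acid replicate 3 (-0.83, adjusted p = 0.0139) and with voom on the recovered reads (-0.60, adjusted p = 0.00638), but not when any of the other 5 libraries was left out, with the smallest value leaving out fatty acid replicate 2 (-0.39, adjusted p = 0.205).

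IER3 encodes a short-lived protein that modulates apoptosis and ERK signalling (chromosome 6, 30743199 to 30744554). It had 35.0, 28.1 and 35.8 FPKM in fatty acid replicates 1, 2 and 3, against 26.8, 19.7 and 25.6 FPKM in control replicates 1, 2 and 3. Every fatty acid library exceeded every control library, and in each group replicate 2 was the lowest. The means were 33.0 ± 4.22 FPKM in fatty acid cells and 24.05 ± 3.82 FPKM in control cells (SD, n = 3 each), a ratio of 1.37. The log2 fold change was 0.45 ± 0.13, with an interval of 0.14 to 0.77, and IER3 had the smallest p of the 9 (unadjusted p = 0.0107, limma adjusted p = 0.0669). It passed with a minimum of 2 FPKM (adjusted p = 0.0393), after rescaling to TPM (0.59, adjusted p = 0.0169) and with voom (0.43, adjusted p = 0.0159).

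DUSP1 encodes the nuclear phosphatase for p38, JNK and ERK (chromosome 5, 172768090 to 172771195). It had 97.9, 91.5 and 107.3 FPKM in fatty acid replicates 1, 2 and 3, against 131.4, 106.7 and 122.3 FPKM in control replicates 1, 2 and 3. Fatty acid replicates 1 and 2 lay below the control range, and replicate 3 was just above control replicate 2. The means were 98.9 ± 7.995 FPKM in fatty acid cells and 120.1 ± 12.5 FPKM in control cells (SD, n = 3 each). The log2 fold change was -0.28 ± 0.09, with an interval of -0.49 to -0.07 (unadjusted p = 0.0162, limma adjusted p = 0.0849). It passed without control replicate 2 (-0.36, adjusted p = 0.0398), with quantile normalization (-0.33, adjusted p = 0.0475) and with voom (-0.28, adjusted p = 0.015). It did not pass with any other single library left out (limma adjusted p = 0.0866 to 0.257). After rescaling to TPM it was -0.14 (adjusted p = 0.296).

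DUSP5 encodes a nuclear phosphatase specific for ERK (chromosome 10, 110497838 to 110511544). It had 3.43, 2.18 and 2.88 FPKM in fatty acid replicates 1, 2 and 3, against 2.01, 1.93 and 1.94 FPKM in control replicates 1, 2 and 3. The control libraries lay closer together than their read numbers give, and the lowest fatty acid library, replicate 2, was only slightly above them. The values rest on 75, 82 and 120 reads in fatty acid replicates 1, 2 and 3 and on 47, 32 and 60 reads in control replicates 1, 2 and 3. On the log2 scale the fold change was 0.42 ± 0.14, with an interval of 0.09 to 0.75 (unadjusted p = 0.0188, limma adjusted p = 0.0925). It passed after rescaling to TPM (0.60, adjusted p = 0.0292). With voom it did not (0.46, adjusted p = 0.106).

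DUSP6 encodes the cytoplasmic ERK phosphatase and is a common readout of ERK activity (chromosome 12, 89347232 to 89353271). It had 6.14, 4.68 and 6.32 FPKM in fatty acid replicates 1, 2 and 3, and 6.62, 6.04 and 7.12 FPKM in control replicates 1, 2 and 3. The groups overlapped, with fatty acid replicate 2 apart below the rest. Its log2 fold change was -0.20 ± 0.12, with an interval of -0.48 to 0.08 (limma adjusted p = 0.298), and leaving out fatty acid replicate 2 it was -0.07. IER3, DUSP1 and DUSP6 each overlap a noncoding gene on the other strand, none of which exceeded 0.321 FPKM in any library.

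**Figure D2:**
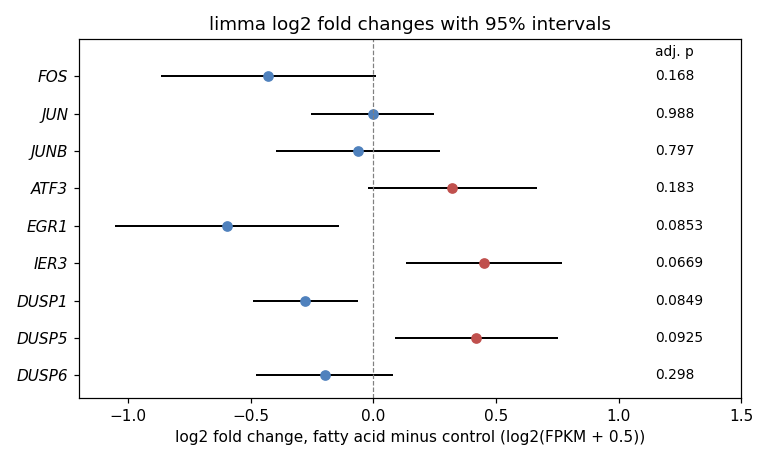
Log2 fold changes of the 9 tested genes (horizontal axis, fatty acid minus control on log2(FPKM + 0.5)), with 95% intervals of limma as lines and adjusted p at the right. The intervals of EGR1, DUSP1, IER3 and DUSP5 leave out 0 before adjustment, and no adjusted p is under 0.05.

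The residual SD of the 9 tested members lay above that of the median tested gene (0.122 on the log2 scale) in all 9, at 0.3196 for EGR1 and 0.300 for FOS, which stood above 90.2% and 89.2% of tested genes. The spread of the abundant members exceeded counting error. In fatty acid cells the coefficient of variation of EGR1 was 31.5%, where its reads alone give 2.05%, and that of FOS was 28.2%, where they give 5.27%. In control cells EGR1 varied by 6.76%, where its reads give 2.03%. ATF3 varied by 8.07% in fatty acid cells, where counting gives 7.83%, and by 22.1% in control cells, where counting gives 10.6%. DUSP5 varied by 22.1% in fatty acid cells, where counting gives 10.4%, and by 2.01% in control cells, below the 14.7% that counting gives.

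Fatty acid replicate 2 was the lowest fatty acid library for 8 of the 9 tested members, the exception being ATF3, while 31.4% of all tested genes had their lowest fatty acid value there. Control replicate 2 was the lowest control library for the same 8 members, against 35.1% of all tested genes. Among 26 other immediate early genes tested, 15 were lowest in fatty acid replicate 2 and 17 in control replicate 2. The median deviation of the members from their group mean was -0.25 in fatty acid replicate 2 and 0.15 in fatty acid replicate 3 on the log2 scale, and -0.12 in control replicate 2 and 0.10 in control replicate 3. The median deviation of all tested genes stayed between -0.02 and 0.03 in every library. FOS and EGR1 had the widest spread, from -0.35 and -0.40 in fatty acid replicate 2 to 0.40 and 0.47 in fatty acid replicate 3. The summed level of the 10 genes was 268.8, 230.3 and 316.5 FPKM in fatty acid replicates 1, 2 and 3, and 333.1, 281.7 and 330.9 FPKM in control replicates 1, 2 and 3, and the groups overlapped. ATF3 departed from the others, being highest in fatty acid replicate 2 and lowest in control replicate 1. With replicate 2 of both groups left out, a choice made after seeing these values, 0 of 9 members were called. Of all tested genes only 0.927% were then called higher and 1.4% lower. IER3 had the smallest limma adjusted p of the members (0.053).

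**Figure D3:**
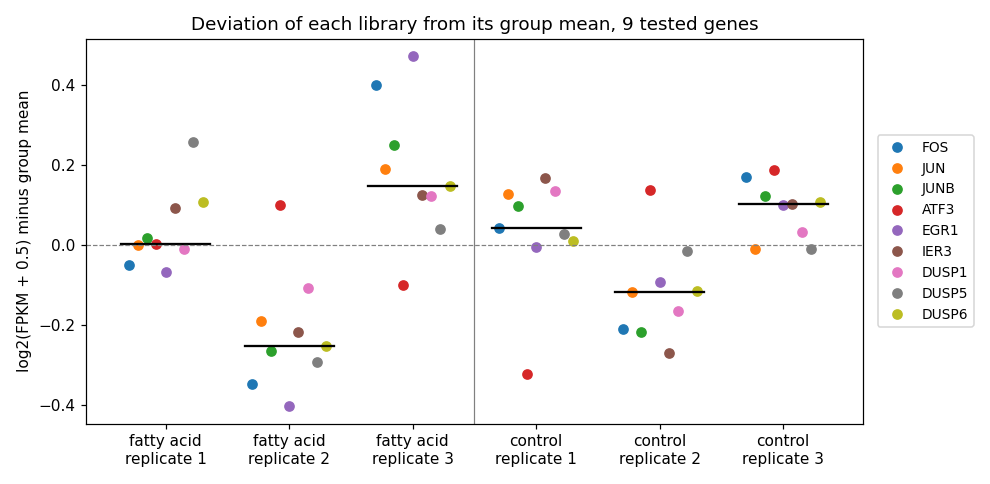
Deviation of log2(FPKM + 0.5) from the mean of the gene in its group (vertical axis) for the 9 tested genes (colours) in each fatty acid library (left) and control library (right), with black bars for the median of the 9. In both groups replicate 2 lies below 0 for every gene but ATF3.

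AP-1 subunits were also compared as shares of their families, using FPKM, in 14 exact permutation tests over 4 families (Benjamini-Hochberg over the 14, shares within a family being dependent). FOS made up 27.2 ± 5.79% of the FOS family sum (FOS, FOSB, FOSL1 and FOSL2) in fatty acid cells and 36.7 ± 3.59% in control cells (exact p = 0.2, adjusted 0.525). FOSL2, which is less dependent on acute stimulation, made up 44.4 ± 3.03% in fatty acid cells and 37.8 ± 2.81% in control cells, without overlap (exact p = 0.1, adjusted 0.467). In the JUN family, JUN made up 16.6 ± 0.508% and 16.2 ± 0.696%, JUNB 43.9 ± 3.26% and 44.7 ± 1.82%, and JUND 39.5 ± 3.75% and 39.1 ± 1.16% in fatty acid and control cells (exact p = 0.5, 1 and 1). The summed JUN family exceeded the summed FOS family in every library, at 91.1 to 112.6 FPKM against 28.1 to 32.7 FPKM in fatty acid cells and 92.2 to 113.7 FPKM against 27.1 to 34.4 FPKM in control cells.

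**Figure D4:**
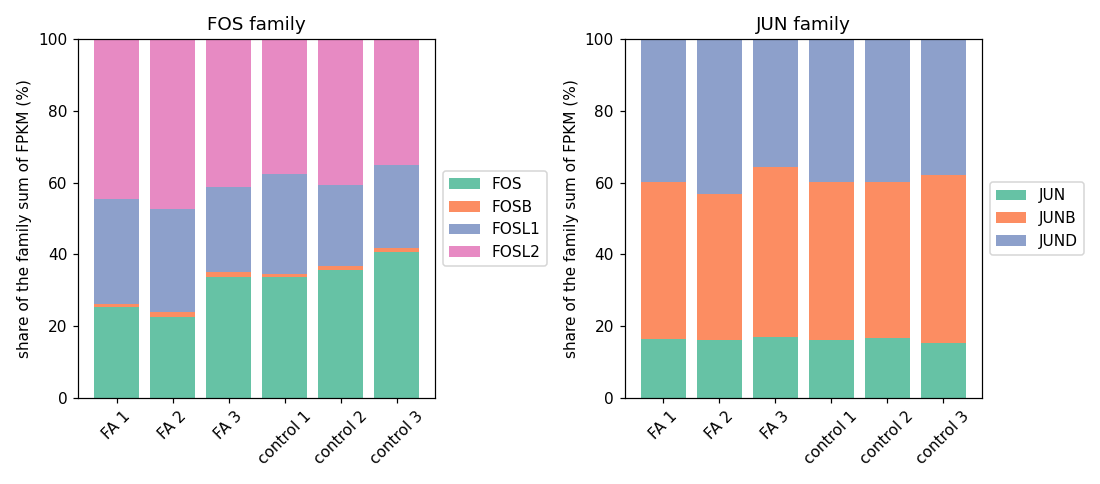
Share of each gene in the summed FPKM of the FOS family (left panel) and the JUN family (right panel), as stacked bars per library, fatty acid (FA) libraries to the left of control libraries. The FOS share is 22.6% to 33.7% in fatty acid cells and 33.7% to 40.7% in control cells, and the JUN family shares are nearly level.

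Among the nuclear inducible phosphatases (DUSP1, DUSP2, DUSP4 and DUSP5) DUSP1 held 96.5 ± 0.580% of the summed FPKM in fatty acid cells and 97.8 ± 0.124% in control cells, and DUSP5 held 2.76 ± 0.541% in fatty acid cells and 1.61 ± 0.145% in control cells. Neither pair of groups overlapped (exact p = 0.1, adjusted 0.467, for each). Among the cytoplasmic ERK phosphatases DUSP6, DUSP7 and DUSP9, DUSP6 held 36.2 ± 4.57% in fatty acid cells and 36.0 ± 2.80% in control cells (exact p = 0.9, adjusted 1).

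The members have few exons. By GENCODE 29, the principal transcripts of all 10 have 1 to 4 exons (1 for JUN and JUNB), whereas 19.7% of 11957 tested protein-coding genes with a principal transcript have at most 4, and the median is 9. The principal transcripts of all 10 span less than the median of 28500 bases, although the whole ATF3 gene spans 55444 bases. The AU-rich pentamer ATTTA, known to destabilise many immediate early mRNAs, occurs 8.14 times per kb in the 3′ untranslated region of IER3, 6.2 times in FOS, 5.95 times in DUSP1 and 4 times in JUNB, against a median of 1.67 over those genes. It occurs 0.81 times per kb in EGR1, 0.495 times in DUSP6 and not at all in DUSP5. The longer motif TTATTTATT is present in FOS and DUSP1 and in 8.47% of the genes.

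The 3 tested genes with the profile most like EGR1 over the 6 libraries (smallest Euclidean distance of centred log2 values, from genes averaging 1 FPKM or more) were TMEM145 (distance 0.158), SNHG19 (0.198) and SLC25A27 (0.211), none of them called (limma adjusted p = 0.0865, 0.064 and 0.0579). For ATF3 they were ZNF780A (0.0853), AVEN (0.102) and DTWD2 (0.109), and for DUSP6 ASIC3 (0.0746), STK19 (0.108) and AFG3L1P (0.125). These profiles were picked out of all tested genes for their likeness.

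Genes around the members were read from 10 lists. Calls as deposited are set against the 12.9% of all tested genes called in either direction, and list medians against the median log2 fold change of 0.04. The share of all tested genes differed in other settings. Without fatty acid replicate 1, 2 or 3 it was 1.56%, 1.63% and 3.53% higher and 1.58%, 1.67% and 2.69% lower. Without control replicate 1, 2 or 3 it was 7.57%, 6.43% and 4.33% higher and 3.45%, 4.68% and 2.78% lower. After rescaling to TPM it was 17.8% higher and 2.78% lower. With median-of-ratios, quantile and nuclear scaling it was 5.31%, 5.17% and 4.84% higher and 5.58%, 5.27% and 5.7% lower. Among other immediate early genes, 5 of 26 tested were higher, 3 lower and 18 did not pass, with a median of 0.02. CTGF, a secreted matrix protein gene, fell to 63.4 ± 10.1 FPKM in fatty acid cells, against 117.8 ± 12.2 FPKM in control cells (limma adjusted p = 0.00527). KLF10, a TGF-beta-inducible repressor, rose to 13.5 ± 0.328 FPKM in fatty acid cells, against 9.15 ± 0.469 FPKM in control cells (0.00244). SOCS3, a feedback inhibitor of cytokine receptors, had 12.5 ± 2.37 FPKM in fatty acid cells and 7.15 ± 1.184 FPKM in control cells (0.0241, but 0.0988 leaving out fatty acid replicate 1 and 0.0683 leaving out replicate 3). SGK1 and ZFP36L2 were also higher (0.0226 and 0.0307). RHOB and MCL1, the most abundant genes that did not pass, had log2 fold changes of -0.01 and 0.11. EGR4 and ARC were listed at 0 in all libraries. Without fatty acid replicate 1, 2 or 3, or control replicate 3, the higher genes of the list numbered 1, 2, 1 and 2 and the lower 1, 1, 1 and 2, and without control replicate 1 there were 6 higher and 1 lower. Scaling also moved the balance, to 3 higher and 3 lower with median-of-ratios scaling, 3 and 4 with quantile normalization, 2 and 3 scaled to nuclear reads, and 10 and 1 after rescaling to TPM.

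Of 13 other AP-1 and related bZIP genes tested, 3 were higher (ATF1, ATF2 and ATF4), 0 lower and 10 did not pass, with a median of 0.14. ATF2, a p38 and JNK target, had 13.5 ± 0.590 FPKM in fatty acid cells and 10.6 ± 0.647 FPKM in control cells (limma adjusted p = 0.0217). JUND and FOSL2 had log2 fold changes of -0.03 and 0.22 (0.846 and 0.107). Of 11 other MAPK phosphatase genes, 1 was higher (DUSP10, 0.04996) and 1 lower. The lower gene, DUSP7, had 3.84 ± 0.386 FPKM in fatty acid cells and 5.19 ± 0.441 FPKM in control cells (0.0389), and without any 1 of the 6 libraries its adjusted p lay between 0.0501 and 0.14. DUSP3 and DUSP14, the most abundant that did not pass, had log2 fold changes of 0.03 and 0.17. Leaving out fatty acid replicate 1 or 2 left neither list with a call. Leaving out fatty acid replicate 3 or control replicate 3 left 1 gene of the first list and none of the second, and leaving out control replicate 2 gave 1 higher and 1 lower gene of the first and none of the second.

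Of 18 ERK feedback and output genes tested, 3 were higher, among them TRIB1 and SPRED2, and 1 lower (CCND1), with a median of 0.04. TRIB1, a pseudokinase gene, rose to 8.07 ± 0.505 FPKM in fatty acid cells, against 5.601 ± 0.323 FPKM in control cells (limma adjusted p = 0.00815). CCND1, the cyclin D1 gene, had 29.8 ± 0.741 FPKM in fatty acid cells and 34.4 ± 0.916 FPKM in control cells (0.0364). Without fatty acid replicate 1, 2 or 3, or control replicate 3, 2 genes of the list were higher and 0 lower. SPRED2 lost its call with each of the 6 libraries left out (0.0667 to 0.163). ERRFI1 did not pass, with a log2 fold change of -0.12 (0.21).

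Of 15 receptors and ligands upstream of ERK, 3 were higher and 3 lower, with a median of -0.03. AREG, an EGF receptor ligand, rose to 12.7 ± 0.488 FPKM in fatty acid cells, against 7.37 ± 1.16 FPKM in control cells (limma adjusted p = 0.00591). EGFR, its receptor, had 15.6 ± 1.32 FPKM in fatty acid cells and 11.9 ± 0.627 FPKM in control cells (0.023). FGFR2, FGFR3 and FGFR4 were lower, with log2 fold changes of -0.37, -0.52 and -0.43 (0.0199, 0.0208 and 0.0276). MET and ERBB2 did not pass, at 0.18 and -0.19 (0.142 and 0.219). Without fatty acid replicate 1, 2 or 3, or control replicate 3, the higher genes numbered 1, 1, 2 and 1 and the lower 1, 0, 1 and 1, and there were 6 higher and 1 lower after rescaling to TPM, against 3 or 4 higher and 4 lower with the other 3 scalings.

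Of 19 genes of the RAS to ERK cascade, 3 were higher, among them SOS1 and NRAS, and 0 lower, with a median of 0.09. SOS1, the RAS exchange factor gene, had 10.99 ± 0.513 FPKM in fatty acid cells and 7.97 ± 0.762 FPKM in control cells (limma adjusted p = 0.0161). SHC1 and GRB2 had log2 fold changes of -0.07 and 0.09 and did not pass. Of 17 genes of the JNK and p38 cascade, 2 were higher, MAP3K5 (log2 fold change 0.44, 0.01) and MAP3K8 (0.51, 0.0278), while MAPKAPK2 and MAPKAPK3 had 0.06 and 0.09. None of 10 SRF, ELK and CREB factor genes passed with limma, 2 were higher at an unadjusted p under 0.05, voom called 1 and the TPM scale 2, and ELK1 and SRF had log2 fold changes of -0.03 and -0.05. Without fatty acid replicate 1 none of these 3 lists had a call, and without fatty acid replicate 2 only 1 gene of the JNK and p38 cascade did. With each of the other 4 libraries left out, 1 or 2 genes of the RAS to ERK cascade and 1 or 2 of the JNK and p38 cascade were called.

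ATF4 targets and partners around ATF3 had the largest share of calls of the 10 lists (55.6%), since 5 of 9 tested were higher and 0 lower, with a median of 0.31. The lists were chosen with earlier results of these data known, so this rank is a description only. ASNS, the asparagine synthetase gene, had 11.98 ± 2.012 FPKM in fatty acid cells and 6.59 ± 1.23 FPKM in control cells (limma adjusted p = 0.0152), and TRIB3, a pseudokinase gene, 10.3 ± 0.853 FPKM and 6.05 ± 0.954 FPKM in fatty acid and control cells (0.00907). CHAC1, CEBPG and DDIT4 were higher with log2 fold changes of 0.85, 0.33 and 0.31 (0.0182, 0.0157 and 0.0194). CEBPB, NUPR1, DDIT3 and SESN2 had 0.15, 0.06, 0.05 and 0.17 and did not pass. ATF4 itself, counted with the bZIP genes, had 90.7 ± 2.41 FPKM in fatty acid cells and 76.0 ± 5.74 FPKM in control cells (0.0392, and up to 0.145 without 1 library). Leaving out fatty acid replicate 1 left 0 genes of the list called (TRIB3 at 0.0519), and leaving out replicate 2 left 1 (TRIB3 at 0.0489). Of 8 heat shock genes, which often accompany immediate early genes under stress or handling, 3 were higher and 0 lower. The higher genes were DNAJA1, HSPH1 and HSP90AA1 (log2 fold changes 0.33, 0.28 and 0.26). HSPA8 and HSPB1 had 0.13 and -0.20 (0.155 and 0.186). HSPA1B, HSPA1A and DNAJB1 had 0.16, 0.05 and -0.04 and did not pass either (0.146, 0.621 and 0.766). None of the 8 was called without fatty acid replicate 1 or 2, and 1 was called without fatty acid replicate 3 or after median-of-ratios scaling. The part of these heat shock shifts in the members' values was not tested.

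Of the 32 called genes chosen from the lists, 5 (among them KLF10, CTGF, TRIB1 and AREG) also passed with each of the 6 libraries left out in turn. The 32 were those with the smallest adjusted p of each list, and the same share over all called genes was not counted. With no expression minimum none of the lists had a call, while 0.107% of all genes were called higher and 0.0827% lower. After rescaling to TPM the higher genes were 3 of the other MAPK phosphatases, 6 of the ERK feedback and output genes, 5 of the RAS to ERK cascade and 5 of the JNK and p38 cascade, with 0 lower in these lists. With median-of-ratios, quantile or nuclear scaling the higher genes of the same lists were 0, 2, 2 and 2, and 0 or 1 were lower.

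**Figure D5:**
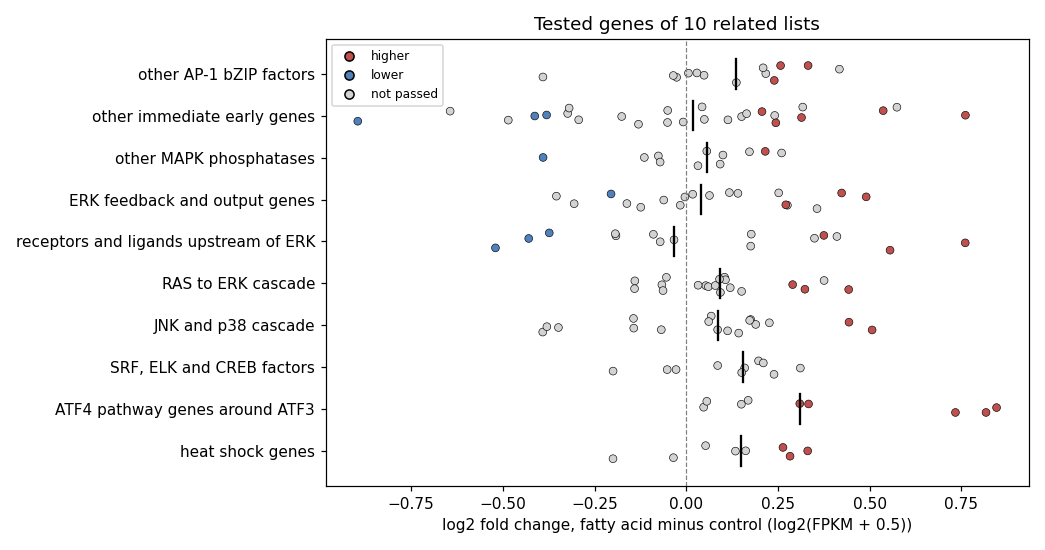
Log2 fold change (horizontal axis, fatty acid minus control on log2(FPKM + 0.5)) of each tested gene in 10 related lists (rows, points spread vertically for legibility), with genes called higher in red, called lower in blue and not passed in grey, and black bars for the list medians. The list of ATF4 targets has the highest median, 0.31, and CTGF is the lowest point among other immediate early genes.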

How the data were processed

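Libraries were prepared from 100 ng of total RNA with a stranded mRNA kit, per the labels' protocols. STAR 2.5.2, featureCounts, Subread 1.5.1 and the build GRCh38 are named in the submitters' processing notes. The values deposited by the authors are FPKM, scaled to gene length and to the reads assigned in each library, in 1 table for all 6 libraries. FPKM times length came out as whole multiples of 1 step per library (tolerance 0.02 reads beyond rounding) for at least 99.94% of values printed finely enough, which gave the depth and the reads.

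Sample titles gave the groups and replicate numbers. The test was limma 3.58.1 (R 4.3.3) with an intensity trend on log2(FPKM + 0.5), a scale that shrinks differences of low genes, for genes averaging 0.5 FPKM or more. Fatty acid was set against control with 3 libraries each and no covariate, Benjamini-Hochberg adjustment ran over all tested genes, and the threshold was 0.05. The fit was run on simulated data with the same spread setting for every gene. That run cannot show how the fit behaves at the wider spread of EGR1 and FOS. A p in parentheses after a gene is the limma adjusted p. Exact permutation tests were two-sided (scipy 1.17.1). Promoters are from RefSeq and transcript structures from GENCODE 29, and 8 of the 10 members matched a promoter entry.

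The members and lists were chosen with earlier results of these data known. The text names all members, up to 5 called genes and the 2 most abundant genes that did not pass per list, and the 3 nearest profiles of EGR1, ATF3 and DUSP6. Some genes that this rule chose are not reported here. Alternatives were other pseudocounts, filters, scalings, limma without the trend, voom on recovered reads, a replicate block and each library left out. Leaving out replicate 2 of both groups was added after seeing the data.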

Additional observations from a re-analysis of the deposited data

How the results depend on the processing

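Over 18 alternative settings, all of them moderated limma fits, none reversed EGR1, FOS, DUSP1, DUSP6, IER3, DUSP5 or ATF3. JUN turned positive after rescaling to TPM (0.132), without fatty acid replicate 2 (0.0919), without control replicate 1 (0.0606) and without replicate 2 of both groups (0.033), and JUNB after rescaling to TPM (0.0732) and without fatty acid replicate 2 (0.0704). With 1 library left out JUN ranged from -0.09814 to 0.0919 and JUNB from -0.1873 to 0.0704. The cause of these turns was not tested. The called members numbered 1 higher with a minimum of 2 FPKM (13.1% of all tested genes), 2 higher after rescaling to TPM (17.8%), 1 lower with quantile normalization (5.27%), and 1 higher (12.6%) and 3 lower (7.86%) with voom on recovered reads. With 1 library left out there were 0 higher (1.56% to 7.57% of all tested genes) and 0 to 1 lower (1.58% to 4.68%). In all, 1891 genes were called as deposited, 110 with no filter (no member among them), 3023 after rescaling to TPM, 1101 without the intensity trend, 2999 with voom, 463 to 1629 with 1 library left out and 342 without replicate 2 of both groups. The split of calls was 1205 higher and 686 lower as deposited, 1363 and 731 with a minimum of 2 FPKM, 1846 and 1153 with voom, 779 and 818 with median-of-ratios scaling, 758 and 772 with quantile normalization, 710 and 835 scaled to nuclear reads, and 2615 and 408 after rescaling to TPM.

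With the replicate number as a block, 1474 genes were called, and 1 member was higher (IER3, adjusted p = 0.0122, against 5.57% of all tested genes) and 3 lower (EGR1 0.0431, FOS 0.0437 and DUSP1 0.0491, against 4.48%). Across all tested genes, same-numbered libraries of both groups had deviations correlated at 0.0122, 0.0836 and 0.0224 for replicates 1, 2 and 3. The samples share only a number, and fatty acid replicate 3 correlated best with control replicate 1 (0.0731). Depth limits FOSB (10 to 38 reads per library), DUSP5 (32 to 120 reads) and ATF3 (66 to 197 reads), and with 3 libraries per group the spread between libraries limits all members.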
